A study of Mus musculus with 10 samples.

Results

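The chemokine ligands described here were the 10 rows of the deposited count table named *Ccl2*, *Ccl3*, *Ccl4*, *Ccl5*, *Ccl6*, *Ccl7*, *Ccl9*, *Ccl12*, *Cxcl10* and *Cxcl16*, out of 55453 gene rows. They were measured by bulk RNAseq of microglia, sorted as CD45int CD11b+ cells out of hippocampal tissue of 3xTg AD females older than 15 months. Every animal, PBS controls included, expressed the 3xTg transgenes, among them *APP* with the Swedish mutation and *MAPT* with P301L, driven by the Thy1.2 promoter, which is active in neurons, and no library analysed came from a non-transgenic mouse. The PBS group received subcutaneous PBS and the GA group 0.1 mg of glatiramer acetate (GA), a mixture of synthetic peptides used against multiple sclerosis, per injection. Injections were weekly over about 8 weeks, with an extra one in the first week, and each group has 5 libraries. Libraries are called here by their titles, 388_1 to 388_5 for PBS and 394_1, 394_2, 400_1, 400_2 and 400_3 for GA, so that PBS has 1 title prefix and GA has 2. What the prefix stands for is not given in the sources used here, and prefix and treatment cannot be told apart between GA and PBS. The comparison asks whether the chemokine output of microglia differed after GA.

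Chemokines are small secreted proteins that guide leukocytes along a gradient through G protein-coupled receptors. The C-C family, here all members named *Ccl*, has adjacent cysteines near the start of the mature protein, and the C-X-C family, here *Cxcl10* and *Cxcl16*, has a single residue between them. Microglia are a main source of C-C chemokines in the brain, and transcription of many of these genes is known to respond within hours to inflammatory signals or to interferon.

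The cysteine signature is what places the members in their families, and it is printed here in the coding sequence of 9 of the 10 genes, 5′ to 3′ on the coding strand, from the GENCODE M21 transcripts of the GRCm38 build, with the codons of the first cysteine pair in capitals and 12 bases on each side.
Ccl2: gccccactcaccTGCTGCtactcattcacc
Ccl7: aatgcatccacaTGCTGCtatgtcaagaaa
Ccl12: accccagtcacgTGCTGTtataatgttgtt
Ccl4: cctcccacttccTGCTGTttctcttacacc
Ccl5: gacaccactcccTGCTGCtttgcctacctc
Ccl6: acttcttcagacTGCTGCttctcttatgcc
Ccl9: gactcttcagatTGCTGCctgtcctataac
Cxcl10: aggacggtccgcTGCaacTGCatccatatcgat
Cxcl16: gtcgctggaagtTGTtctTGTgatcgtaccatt

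Of the members, 9 lie on chromosome 11, and 8 of these form a pair of clusters. *Ccl2*, *Ccl7* and *Ccl12* lie in chr11:82035571-82103400, and *Ccl5*, *Ccl9*, *Ccl6*, *Ccl3* and *Ccl4* in chr11:83525778-83664683. *Cxcl16* is at chr11:70453983-70459984 and *Cxcl10* at chr5:92346638-92348889, both on the minus strand. By the encoded proteins, the closest pairs were *Ccl3* and *Ccl4* with 60.4% identical residues, *Ccl7* and *Ccl12* with 59.4%, and *Ccl6* and *Ccl9* with 56.2%. At the read length of 100 bases no stretch of the other 8 members occurred in the transcripts of another gene. *Cxcl16* shares 552 exon bases with *Zmynd15* and *Cxcl10* shares 133 with *Art3*, both on the opposite strand, and 14.2% and 1.39% of their 100-base stretches respectively are also found in that neighbour. Whether reads were counted by strand is not given in the sources used here, so the values of *Cxcl16* and *Cxcl10* are uncertain by that overlap.

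Libraries held 32332185 to 38764643 counts. PBS libraries 388_4 and 388_5 stood apart from the other 8, with a chi-square per degree of freedom of 30.1 to 50.9 in pairs that hold either of them against 13.01 to 27.6 in the other pairs, and mitochondrial shares of 0.180% and 0.175% against 0.129% to 0.152%. The 10 microglia markers were high throughout, with *Csf1r*, the receptor for colony stimulating factor, at 15418 CPM or more in each library and *P2ry12*, a purinergic receptor of resting microglia, at 5570 CPM or more (CPM are counts scaled to a common library total after TMM normalization). Of the 10 T and NK cell markers, 2 (*Gzmb* and *Ncr1*) had 0 counts in every library, and the summed level of all 10 did not exceed 0.764 CPM. The 10 neutrophil markers summed to 38.1 to 448 CPM in PBS and 11.03 to 170.5 CPM in GA libraries, 0 of them were without counts throughout, and all 8 that were tested had a lower estimate with GA, 7 at an unadjusted *P* under 0.05 (5.75% of all genes tested in either direction). The 8 monocyte markers summed to 35.6 to 89.8 CPM with PBS and 36.0 to 47.0 CPM with GA, and all 6 tested had a lower estimate with GA, 3 at an unadjusted *P* under 0.05. In bulk RNA, fewer cells of a type and less RNA per cell cannot be told apart. The CD45int gate is meant to leave out cells high in CD45, as most blood leukocytes and border macrophages are. The part of other cells in the chemokine values was not tested.

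All 10 ligands were detected in every library. Levels were first compared with each other per exon length, as RPKM, which is CPM divided by the exon length in kilobases. *Ccl6*, a ligand of CCR1 that mice have and humans lack, was the most abundant at 186 ± 21 (SD, n = 10) and made up 30.9% of the summed level of the 10 ligands. *Ccl4* followed at 144 ± 37, *Ccl3* at 111 ± 27 and *Ccl12* at 105 ± 42 (SD, n = 10 each). *Cxcl16* was at 43.9 ± 6.2 and *Ccl9* at 12.5 ± 1.8 (SD, n = 10 each). The remaining 4 were low, with means of 4.79 for *Cxcl10*, 3.42 for *Ccl2*, 2.24 for *Ccl5* and 2.23 for *Ccl7*. Against all genes tested, *Ccl6* stood at the 98.9th percentile of the mean level per length and *Ccl7* at the 37.6th.

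**Figure D1:**
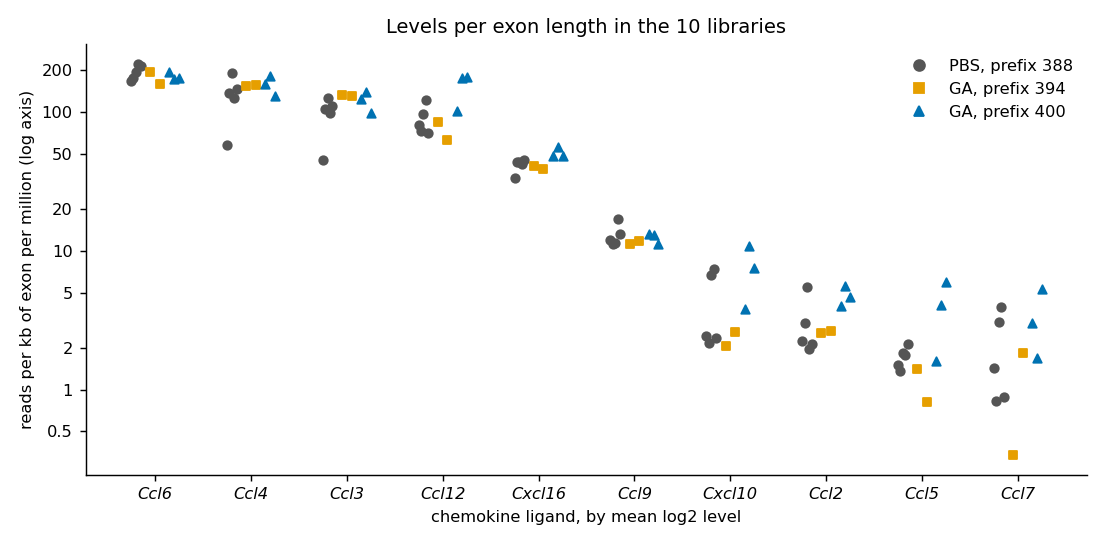
Level of each ligand in RPKM, reads per kilobase of exon scaled as CPM (log axis), with 1 point per library and the groups marked by colour and shape. Levels run from 0.337 for *Ccl7* in GA library 394_1 to 223 for *Ccl6* in PBS library 388_4.

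Of the 9 steps between neighbours in this order, 6 differed beyond the spread of the paired log2 differences (exact sign-flip test over 10 libraries, two-sided, Benjamini-Hochberg adjusted over the 9 steps). *Ccl6* was above *Ccl4* by 0.43 on the log2 scale in 9 of 10 libraries (adjusted *P* = 0.0176, exact test), and *Ccl4* above *Ccl3* by 0.37 in 10 of 10 (adjusted *P* = 0.00439, exact test). The steps from *Ccl12* to *Cxcl16* (1.17), *Cxcl16* to *Ccl9* (1.81) and *Ccl9* to *Cxcl10* (1.64) were also seen in every library, and *Ccl2* was above *Ccl5* by 0.74 in 8 of 10 (adjusted *P* = 0.0176, exact test). With the length of the longest transcript in place of all exons, the step from *Ccl2* to *Ccl5* was 0.27 (adjusted *P* = 0.283, exact test). *Ccl3* and *Ccl12* did not differ beyond their spread (0.12 ± 0.66, SD), nor did *Cxcl10* and *Ccl2* (0.33 ± 0.71), nor *Ccl5* and *Ccl7* (0.16 ± 1.14).

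The ligands also differed in how much they varied between libraries. The within-group SD of log2 CPM was 0.16 for *Ccl6*, 0.19 for *Ccl9* and 0.20 for *Cxcl16*, close to the median of 0.22 over all genes tested. It was 0.43 for *Ccl3*, 0.48 for *Ccl4*, 0.52 for *Ccl12*, 0.54 for *Ccl2*, 0.80 for *Ccl5*, 0.94 for *Cxcl10* and 1.15 for *Ccl7*. The highest library exceeded the lowest by 1.41-fold for *Ccl6* and by 15.6-fold for *Ccl7*, whose counts ran from 9 to 164 per library.

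Between GA and PBS, 0 of the 10 ligands differed at an adjusted *P* under 0.05 (edgeR quasi-likelihood test, Benjamini-Hochberg adjusted over 14481 genes), where 0% of all genes tested did. At an unadjusted *P* under 0.05 the count was also 0 of 10, against 5.75% of all genes tested, and it was 0 of 10 with DESeq2 and with limma-voom. That count was 2 without a filter on low counts (*Ccl3* and *Ccl12*, against 6.90% of all genes in that fit), 2 without 388_3 (*Ccl2* and *Ccl3*, against 6.25%) and 1 without 388_4 (*Ccl12*, against 4.73%). It was 3 both without 394_2 (against 6.77%) and with the GA libraries of prefix 400 alone (against 6.47%), in each case *Ccl5*, *Ccl12* and *Cxcl16*. Without both 388_4 and 388_5 it was 0 of 10, against 7.08%. Estimates were higher with GA for 8 ligands and lower for *Ccl6* and *Ccl9* (higher for all 10 without 388_4 and 388_5), with a median log2 fold change of 0.31 over the 10 beside 0.00020 over all genes tested. The GA and PBS libraries overlapped for each of the 10 ligands, while 0.891% of all genes tested had groups that did not overlap.

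**Figure D2:**
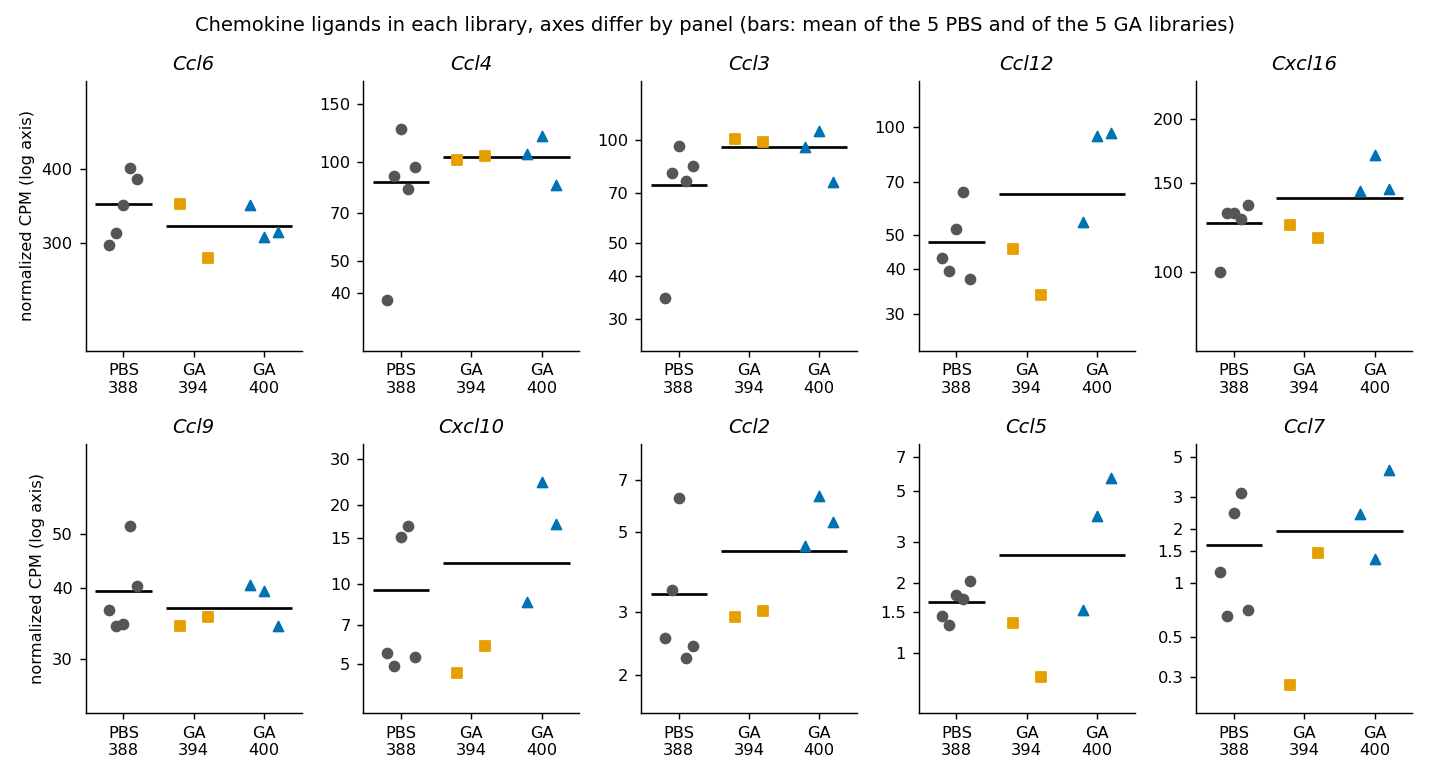
Normalized CPM of each ligand in every library on log axes that differ by panel, with PBS libraries as circles, GA libraries of prefix 394 as squares and of prefix 400 as triangles, and bars at the mean of the 5 PBS and of the 5 GA libraries. The groups overlap in each panel, and *Ccl5*, *Ccl12* and *Cxcl10* are highest in a pair of libraries of prefix 400.

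The first set of ligands are those of CCR2, the receptor through which monocytes are drawn from blood. *Ccl2*, the main CCR2 ligand, stood at 2.54, 3.44, 6.23, 2.23 and 2.41 CPM in PBS libraries 388_1 to 388_5. In GA libraries 394_1, 394_2, 400_1, 400_2 and 400_3 it stood at 2.91, 3.00, 4.56, 6.29 and 5.33 CPM. One PBS library (388_3) was thus as high as the GA libraries of prefix 400, and the other PBS libraries lay near those of prefix 394. The means were 3.37 ± 1.67 and 4.42 ± 1.47 CPM (SD, n = 5 each), and the log2 fold change was 0.39 (SE 0.31, adjusted *P* = 0.919, edgeR quasi-likelihood test). Without 388_3 the fold change of *Ccl2* was 0.74 (unadjusted *P* = 0.0180, adjusted *P* = 0.796, edgeR), and it was 0.24 without 400_2 and 0.12 without both 388_4 and 388_5.

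*Ccl7*, which also binds other receptors of the C-C family, stood at 1.15, 0.657, 2.44, 3.16 and 0.709 CPM in the PBS libraries in the same order. In the GA libraries it stood at 0.270, 1.46, 2.397, 1.36 and 4.22 CPM. The lowest and the highest value were both in GA libraries. The log2 fold change was 0.26 (SE 0.59, 95% interval -0.99 to 1.52) and turned to -0.24 without 400_3.

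*Ccl12*, a mouse CCR2 ligand in the same cluster as *Ccl2*, was the abundant one of this set. It stood at 43.1, 39.4, 51.8, 65.8 and 37.6 CPM in the PBS libraries and at 45.5, 33.8, 54.3, 94.5 and 95.9 CPM in the GA libraries. Only 400_2 and 400_3 lay above every PBS library, and the lowest value was in GA library 394_2. The means were 47.5 ± 11.5 and 64.8 ± 28.7 CPM (SD, n = 5 each), with a log2 fold change of 0.45 (SE 0.26, adjusted *P* = 0.895, edgeR quasi-likelihood test). The fold change of *Ccl12* was 0.28 without 400_2, 0.26 without 400_3 and 0.61 without 394_2.

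The second set are *Ccl3*, *Ccl4* and *Ccl5*, inflammatory chemokines that draw monocytes and T cells, of which *Ccl3* and *Ccl5* bind CCR1. *Ccl3* (MIP-1 alpha) stood at 34.6, 80.1, 96.3, 75.8 and 84.1 CPM in the PBS libraries and at 101, 99.1, 95.3, 106 and 75.5 CPM in the GA libraries. PBS library 388_1 lay far below the other 9 libraries, which spanned 75.5 to 106 CPM. The means were 74.1 ± 23.4 and 95.4 ± 11.8 CPM (SD, n = 5 each). The log2 fold change of *Ccl3* was 0.36 (SE 0.20, 95% interval -0.06 to 0.79, unadjusted *P* = 0.0872, adjusted *P* = 0.894, edgeR quasi-likelihood test), and 0.18 without 388_1 and 0.48 without 388_3.

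*Ccl4* (MIP-1 beta) lies next to *Ccl3* on the other strand. It stood at 38.0, 90.4, 126, 82.9 and 96.7 CPM with PBS and at 101, 104, 105, 120 and 85.3 CPM with GA. Here too 388_1 was lowest, while the highest value was in PBS library 388_3. The log2 fold change was 0.25 (SE 0.22, adjusted *P* = 0.928, edgeR quasi-likelihood test), and 0.06 without 388_1 and 0.42 without 388_3.

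*Ccl5* (RANTES), which draws T cells among others, was scarce, at 1.44, 1.31, 1.77, 1.70 and 2.04 CPM in the PBS libraries. In the GA libraries it stood at 1.35, 0.786, 1.53, 3.88 and 5.69 CPM. The PBS libraries were close together, 400_2 and 400_3 lay above all of them, and 394_2 lay below all of them. The means were 1.65 ± 0.29 and 2.65 ± 2.07 CPM (SD, n = 5 each), on 28 to 221 counts per library. The log2 fold change of 0.68 (SE 0.45, adjusted *P* = 0.896, edgeR quasi-likelihood test) was 0.19 without 400_3, 0.91 without 394_2 and 0.36 with limma-voom.

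The third set are *Ccl6* and *Ccl9*, CCR1 ligands made by cells of the myeloid lineage in mice. *Ccl6* stood at 298, 313, 347, 400.1 and 385 CPM with PBS and at 349, 283, 348, 307 and 314 CPM with GA. *Ccl9* stood at 36.6, 34.3, 34.6, 51.7 and 40.4 CPM with PBS and at 34.2, 35.6, 40.5, 39.6 and 34.2 CPM with GA. Both were highest in PBS library 388_4, and neither had a GA library above every PBS library. The log2 fold changes were -0.12 for *Ccl6* (SE 0.09, 95% interval -0.31 to 0.07) and -0.10 for *Ccl9* (SE 0.11, 95% interval -0.34 to 0.14), and that of *Ccl9* was 0.01 without 388_4. That of *Ccl6* was -0.07 without 388_4 and -0.08 without either 388_5 or 394_2, and without both 388_4 and 388_5 the estimates were 0.0057 for *Ccl6* and 0.07 for *Ccl9*. These were the narrowest intervals of the 10 with that of *Cxcl16*.

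*Cxcl10* (IP-10), the ligand of CXCR3 on activated T cells, stood at 5.47, 4.90, 15.1, 16.7 and 5.30 CPM in the PBS libraries and at 4.62, 5.81, 8.55, 24.5 and 17.0 CPM in the GA libraries. High values were found in both groups, in 388_3 and 388_4 with PBS and in 400_2 and 400_3 with GA, and 5 of the other libraries lay between 4.62 and 5.81 CPM. The log2 fold change was 0.35 (SE 0.47, 95% interval -0.65 to 1.35) and turned to -0.07 without 400_2.

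*Cxcl16*, which is made as a transmembrane protein, is shed by the protease ADAM10 and binds CXCR6, stood at 100.1, 131, 131, 127 and 136 CPM with PBS. With GA it stood at 124, 117, 144.3, 170.0 and 145.8 CPM. The 3 GA libraries of prefix 400 lay above every PBS library, and those of prefix 394 lay within the PBS range. The means were 125 ± 14 and 140.2 ± 20.8 CPM (SD, n = 5 each), with a log2 fold change of 0.17 (SE 0.11, adjusted *P* = 0.895, edgeR quasi-likelihood test), and 0.10 without 388_1 and 0.09 without 400_2.

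A two-sided exact permutation test of each ligand on log2(CPM + 0.1) gave *P* from 0.111 for *Ccl3* to 0.929 for *Ccl7*, where the smallest *P* that 5 against 5 libraries allow is 0.00794. Without 388_3 the exact *P* was 0.0476 for *Ccl2* and 0.0397 for both *Ccl3* and *Ccl4*, and for *Ccl3* it was also 0.0397 without 400_3. Other omissions of 1 library gave exact *P* of up to 0.429 for *Ccl2*, 0.262 for *Ccl3* and 0.635 for *Ccl4*. Over the 10 fits that each left out 1 library, the edgeR estimate kept its direction for 7 of the 10 ligands, and *Ccl7*, *Ccl9* and *Cxcl10* were the exceptions given above.

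**Figure D3:**
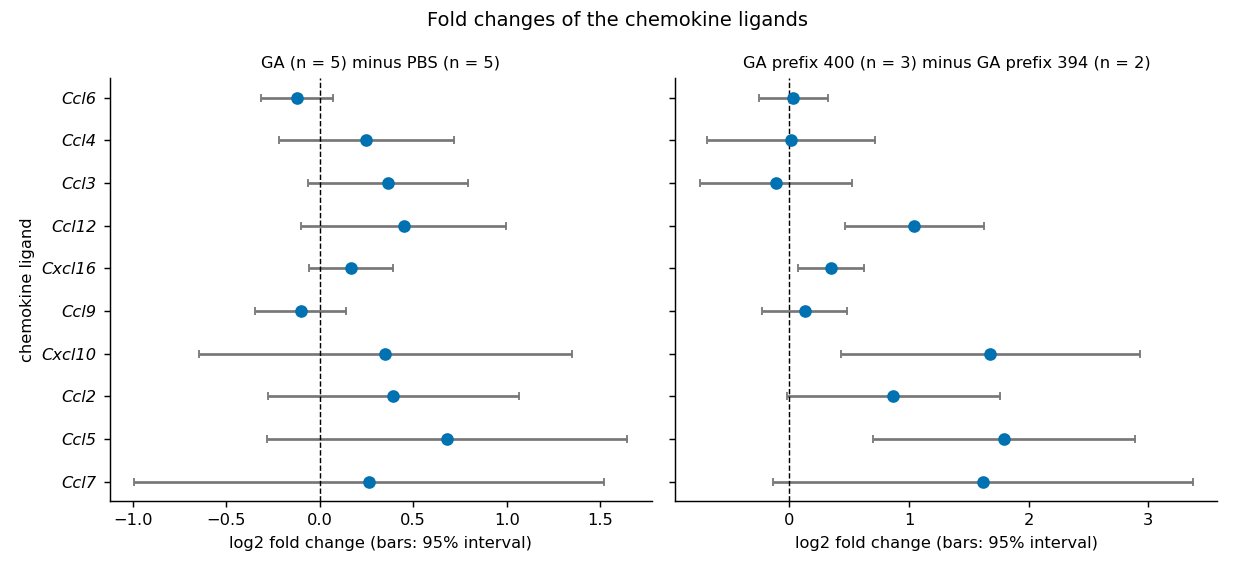
Log2 fold change of each ligand with its 95% interval from edgeR, for GA against PBS (left) and for GA libraries of prefix 400 against those of prefix 394 (right), on axes of different range. On the left each interval includes 0, and on the right those of *Ccl12*, *Cxcl16*, *Cxcl10* and *Ccl5* lie above 0 before adjustment.

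Within the GA group the title prefix is the only label that divides the libraries, and the ligands were compared between the 3 libraries of prefix 400 and the 2 of prefix 394 in an edgeR fit with a mean for each of PBS, prefix 394 and prefix 400. The count with an adjusted *P* under 0.05 was 0 of 10 ligands, against 0.0125% of the 15985 genes tested (2 genes, *Myc* and *Fkbp5*, named after their values were seen). At an unadjusted *P* under 0.05, 4 of the 10 ligands were higher with prefix 400, against 2.38% of all genes tested. In either direction, the count with DESeq2 was 6, beside 1085 over all genes, of which 16414 had an adjusted *P*. With limma-voom it was 5, beside 867 of 15985 genes. The 4 were *Ccl12* (log2 fold change 1.04, SE 0.27, adjusted *P* = 0.495), *Ccl5* (1.79, SE 0.51, adjusted *P* = 0.548), *Cxcl10* (1.68, SE 0.58, adjusted *P* = 0.685) and *Cxcl16* (0.35, SE 0.13, adjusted *P* = 0.730). Mean levels of *Ccl12* were 39.7 CPM with prefix 394 and 81.8 CPM with prefix 400, and those of *Cxcl10* were 5.22 and 16.7 CPM. *Ccl7* had a log2 fold change of 1.62 (SE 0.81, 95% interval -0.14 to 3.37) and *Ccl2* of 0.87 (SE 0.41, 95% interval -0.02 to 1.76). That of *Ccl7* was 0.87 without 394_1 and 3.28 without 394_2, with a lone library of prefix 394 in either fit. *Ccl3*, *Ccl4*, *Ccl6* and *Ccl9* had estimates between -0.11 and 0.13. Lists of other genes also differed in direction in this contrast. Of 12 other chemokine ligands tested, 10 had a higher estimate with prefix 400, 2 at an unadjusted *P* under 0.05 (edgeR). Their median log2 fold change was 0.59, beside 0.61 for the 10 ligands described here, of which 9 had a higher estimate. All 10 border macrophage markers (macrophages of the meninges and perivascular space) had a higher estimate with prefix 400, 1 at an unadjusted *P* under 0.05, with a median of 0.99. Of the neutrophil markers 0 of 8 were higher (median -1.21), of the monocyte markers 2 of 6 (median -0.24) and of the immediate early genes 2 of 21 (median -0.25), with 5 of the last list lower at an unadjusted *P* under 0.05, against 3.07% of all genes tested. The part of these in the ligand values was not tested.

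DESeq2 with its defaults called 64 genes in this contrast, 0.39% of those with an adjusted *P*, and among the ligands it called *Ccl12* alone (log2 fold change 1.04, SE 0.26, adjusted *P* = 0.0231). When each GA library was left out in turn, the edgeR estimates stayed between 0.84 and 1.28 for *Ccl12* and between 1.34 and 2.24 for *Ccl5*. Their unadjusted *P* stayed at 0.0303 or less for *Ccl12* and at 0.0437 or less for *Ccl5*, but reached 0.0723 for *Cxcl10* (without 394_1) and 0.0950 for *Cxcl16* (without 394_2, and 0.0776 without 400_2), in fits where a lone library of prefix 394 was assumed to vary like the other groups. Set against PBS, the libraries of prefix 394 alone gave a higher estimate for 2 of the 10 ligands (*Ccl3* and *Ccl4*), against 49.9% of all genes tested. Those of prefix 400 alone did so for 8 of 10, against 51.0%. For *Ccl5* the log2 fold change against PBS was -0.62 with prefix 394 and 1.17 with prefix 400, and for *Ccl12* it was -0.25 and 0.79. For 4 of the 10 ligands (*Ccl2*, *Ccl12*, *Cxcl10* and *Cxcl16*) both libraries of prefix 394 lay below the PBS mean of log2 CPM and all 3 of prefix 400 above it, against 3.54% of all genes tested, and 7.12% lay on opposite sides in either direction.

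Each ligand was set against each other ligand over the 10 libraries. Of the 45 pairs, 3, which hold 5 of the 10 ligands, were correlated at an adjusted *P* under 0.05 (Pearson's r on log2(CPM + 0.1), permutation test with 100000 draws, Benjamini-Hochberg adjusted over 45). *Ccl3* and *Ccl4* had r = 0.98 (adjusted *P* = 0.00675, permutation test) and Spearman's rho = 0.84 (permutation *P* = 0.00394, adjusted 0.142). Without 388_1 and 400_2, the libraries farthest from the median of *Ccl3*, r was 0.82. The ratio of *Ccl4* to *Ccl3* stayed between 1.003 and 1.308 over the 10 libraries, with an SD of 0.10 on the log2 scale where *Ccl3* alone had 0.47.

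*Ccl12* was correlated with *Cxcl10*, r = 0.88 (adjusted *P* = 0.0155, permutation test), with rho = 0.77 (permutation *P* = 0.0128, adjusted 0.192) and r = 0.80 without 400_2 and 400_3. *Ccl12* and *Ccl5* had r = 0.87 (adjusted *P* = 0.0291, permutation test) and rho = 0.70 (permutation *P* = 0.0301, adjusted 0.248). This second relation rests on 400_2 and 400_3, since r was 0.51 without them, and it also lost the threshold without 394_2 alone (adjusted *P* = 0.160, permutation test), 400_2 alone (0.104) or 400_3 alone (0.170), with r of 0.84, 0.83 and 0.81. On deviations from the group means the coefficients were 0.98 for *Ccl3* with *Ccl4*, 0.90 for *Ccl12* with *Cxcl10* and 0.87 for *Ccl12* with *Ccl5*, and the first alone kept an adjusted *P* under 0.05 (0.0188, against 0.0578 and 0.205, exact permutation within groups). *Ccl6* and *Ccl9*, which are neighbours in the genome, had r = 0.64 (adjusted *P* = 0.181, permutation test) and r = 0.03 without 388_4 and 388_5. *Ccl7* and *Ccl12* had r = 0.58 (adjusted *P* = 0.248, permutation test).

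**Figure D4:**
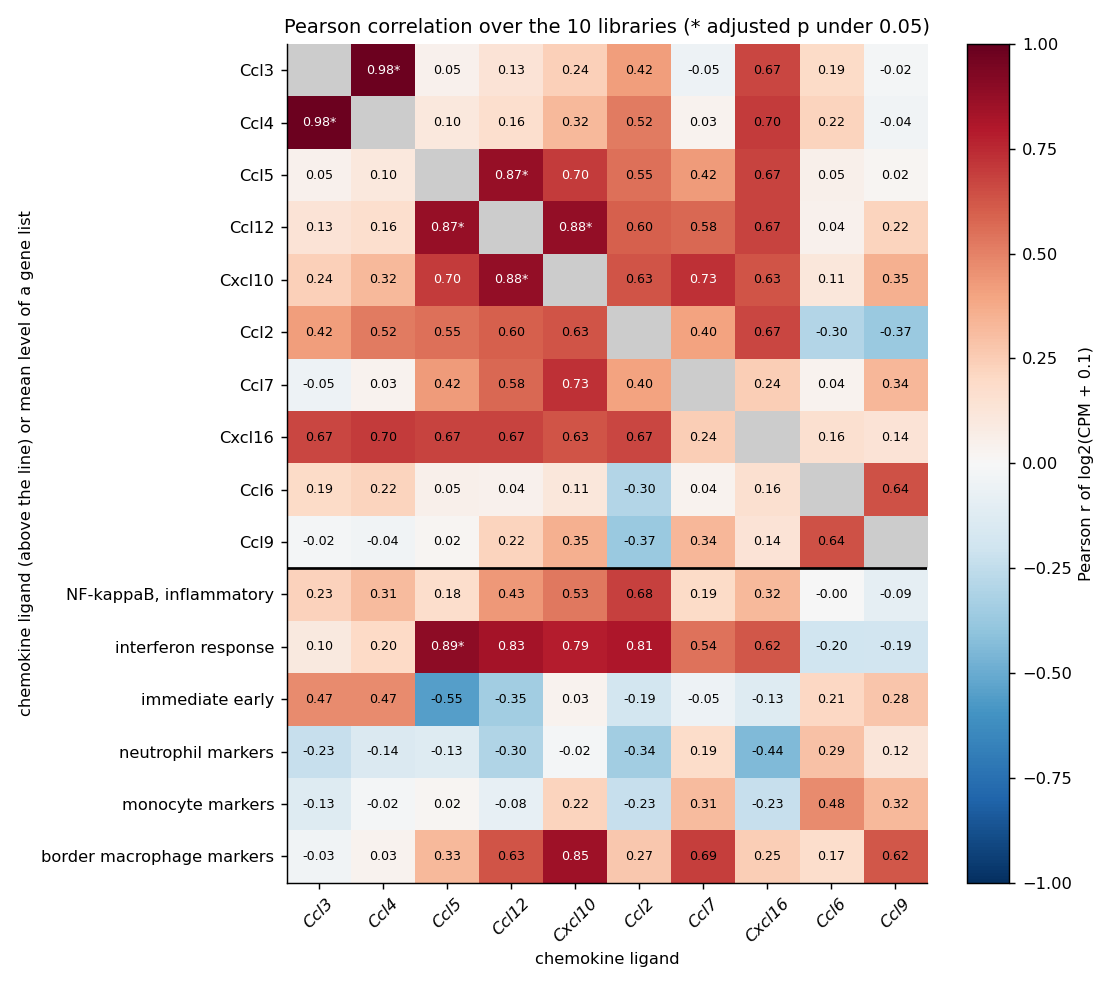
Pearson's r over the 10 libraries for each pair of ligands (above the line) and for each ligand with the mean level of 6 gene lists (below the line), with an asterisk at an adjusted *P* under 0.05. The 4 marked values are those of *Ccl3* with *Ccl4* (0.98), *Ccl12* with *Cxcl10* (0.88), *Ccl5* with *Ccl12* (0.87) and *Ccl5* with the interferon response list (0.89).

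The ligands were next set against the mean log2(CPM + 0.1) of 6 lists, of which 60 pairs were computed (a T and NK cell list was planned, but 0 of its genes passed the filter). One pair passed at an adjusted *P* under 0.05, *Ccl5* with the 20 genes of the interferon response, r = 0.89 (adjusted *P* = 0.0372, permutation test), with rho = 0.85 (permutation *P* = 0.00252, adjusted 0.110). It rests on 400_2 and 400_3, the libraries with the highest interferon level, since r was 0.52 without them. It lost the threshold in 7 of the 10 computations without 1 library, namely those without 388_2, 388_3, 394_1, 394_2, 400_1, 400_2 or 400_3, with r between 0.81 and 0.94 over all 10. On deviations from the group means r was 0.89 and the adjusted *P* was 0.159 (exact permutation within groups). For *Ccl12*, *Ccl2* and *Cxcl10* the coefficients with this list were 0.83, 0.81 and 0.79 (adjusted *P* = 0.0940, 0.0940 and 0.0986, permutation test), and r was 0.35, 0.74 and 0.59 without the same 2 libraries.

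The interferon response genes summed to 529 CPM in 400_2 and 625 CPM in 400_3, to 406 CPM in PBS library 388_3 and to 249 to 315 CPM in the other 7 libraries. All 20 had a higher estimate with GA, 0 of them at an unadjusted *P* under 0.05 (edgeR), with a median log2 fold change of 0.37. Between prefix 400 and prefix 394 all 20 had a higher estimate with prefix 400, 15 of them at an unadjusted *P* under 0.05 (against 2.38% of all genes tested), with a median of 1.29. *Stat2*, a transcription factor of the interferon pathway, and *Bst2*, an antiviral membrane protein, were the most abundant, at 75.8 and 38.3 CPM on average with PBS and 82.6 and 40.3 CPM with GA.

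*Cxcl10* also went with the 10 markers of border macrophages, with r = 0.85 (adjusted *P* = 0.0522, permutation test), rho = 0.84 and r = 0.77 without 388_4 and 400_2. On deviations from the group means r was 0.88 (adjusted *P* = 0.00417, exact permutation within groups), the one pair of a ligand and a list that passed on that scale. These markers summed to 55.7 to 284 CPM in PBS and 54.9 to 215 CPM in GA libraries, highest in 388_4 and 400_2. Of the 10, 0 were without counts throughout. Against PBS, 9 had a lower estimate with GA, and 0 of the 10 had an unadjusted *P* under 0.05 (edgeR). Their median log2 fold change was -0.30. *Mrc1*, the mannose receptor, peaked at 82.8 CPM and *Lyve1*, a hyaluronan receptor, at 30.2 CPM. For *Ccl7* and *Ccl12* the coefficients with this list were 0.69 and 0.63 (adjusted *P* = 0.246 and 0.341, permutation test). The part of border macrophage RNA in the values of *Cxcl10*, *Ccl7* and *Ccl12* was not tested.

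**Figure D5:**
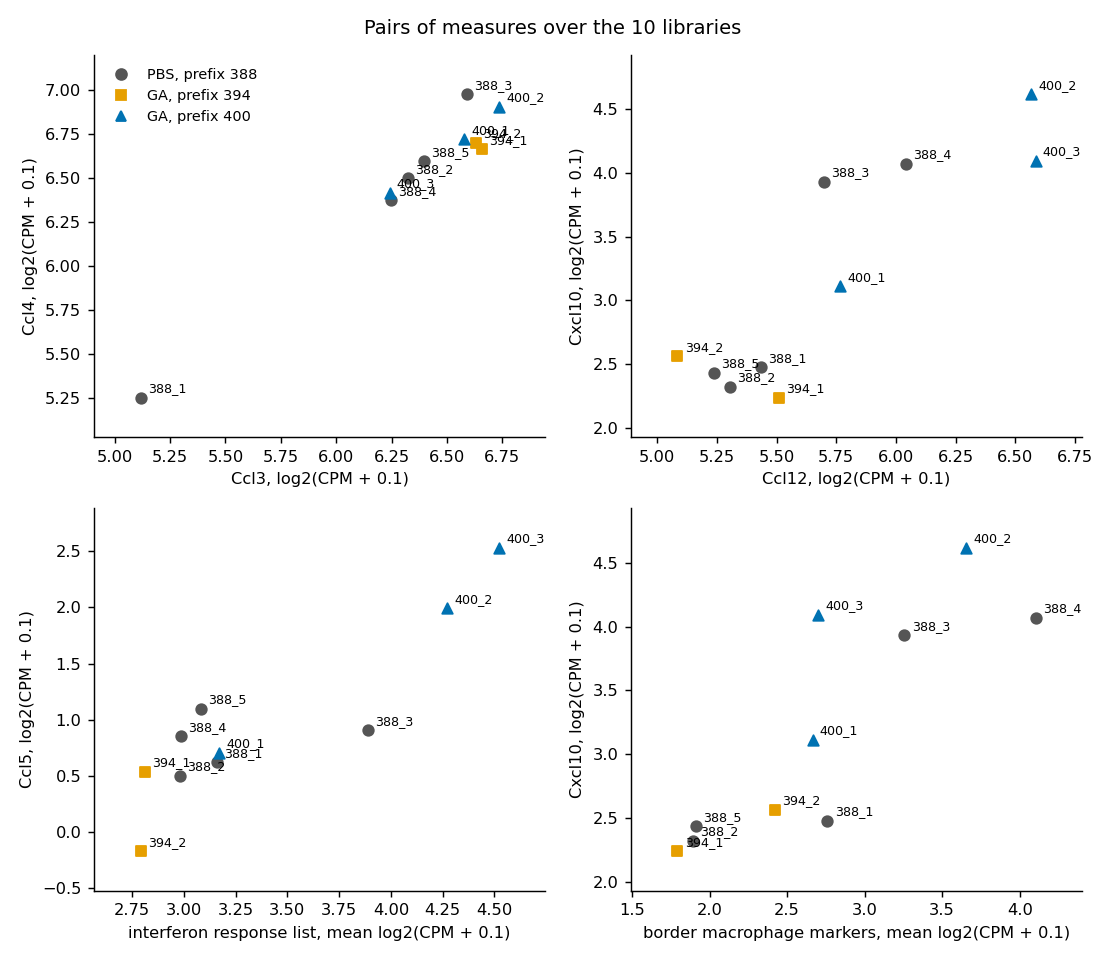
Each point is 1 library, named beside it, on log2(CPM + 0.1) scales: *Ccl4* against *Ccl3*, *Cxcl10* against *Ccl12*, *Ccl5* against the mean level of the interferon response list and *Cxcl10* against that of border macrophage markers. Library 388_1 stands alone at the low end for *Ccl3* and *Ccl4*, and 400_2 and 400_3 stand at the high end for *Ccl12* and for *Ccl5*.

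Over the 10 libraries, the largest Pearson's r of *Ccl3* and of *Ccl4* with any of the 6 lists was 0.47. Both values were for the immediate early genes, transcripts that respond within minutes to a stimulus, including the stimulus of cell isolation. On deviations from the group means, r with that list was 0.63 and 0.57 (adjusted *P* = 0.232 and 0.301, exact permutation within groups). By rank, rho was 0.56 for *Ccl3* with that list (adjusted *P* = 0.538, permutation test). For *Ccl4* with the NF-kappaB and inflammatory genes rho was 0.61 (adjusted *P* = 0.401, permutation test). With neutrophil markers, the coefficients of the 10 ligands lay between -0.44 and 0.29. For *Ccl2* the coefficient with the 18 NF-kappaB and inflammatory genes was 0.68 (adjusted *P* = 0.246, permutation test).

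For the ligands with an entry among the RefSeq promoters of GRCm38.p6 (5 of 10, *Ccl3*, *Ccl6*, *Ccl9*, *Ccl12* and *Cxcl10*), the 250 bases before the start of transcription were read for motifs on both strands. The pair that went together, *Cxcl10* and *Ccl12*, is printed, with matches to the interferon-stimulated response element (GAAA, any 2 bases, GAAA) and to the NF-kappaB motif in capitals. The *Cxcl10* sequence is chr5:92348890-92349139 on the minus strand and the *Ccl12* sequence is chr11:82101595-82101844 on the plus strand.
Cxcl10: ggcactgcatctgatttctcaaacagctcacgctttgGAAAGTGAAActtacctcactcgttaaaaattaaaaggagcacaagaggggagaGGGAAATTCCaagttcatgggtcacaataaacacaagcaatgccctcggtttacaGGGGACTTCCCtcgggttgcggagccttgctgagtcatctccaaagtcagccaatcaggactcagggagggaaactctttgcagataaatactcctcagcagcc
Ccl12: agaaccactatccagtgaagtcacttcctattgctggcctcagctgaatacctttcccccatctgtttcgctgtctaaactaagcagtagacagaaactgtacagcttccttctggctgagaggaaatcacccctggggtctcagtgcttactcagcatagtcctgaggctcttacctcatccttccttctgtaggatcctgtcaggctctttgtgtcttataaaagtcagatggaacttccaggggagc

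The *Cxcl10* window held the response element 213 to 204 bases upstream, NF-kappaB matches at 159 to 150 and, overlapping each other, at 104 to 94 bases upstream, and an AP-1 match (TGANTCA) at 74 to 68 bases. The *Ccl12* window held none of these and a TATA box (TATAAA) 31 to 26 bases upstream. *Ccl9* had an NF-kappaB match 35 to 26 bases upstream on the strand opposite to the gene, an AP-1 match at 53 to 47 bases and 3 TATA matches, and the windows of *Ccl3* and *Ccl6* had no match to any of the motifs searched, the fifth being PU.1 (GAGGAAGT). Of 32851 promoters of the same table, 3.44% hold the response element, 8.46% the NF-kappaB motif, 7.81% the AP-1 motif, 13.6% the TATA box and 3.2% the PU.1 motif. The shares were counted over windows of 300 bases that reach 50 bases past the start, and a match describes letters only.

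The genes whose levels over the 10 libraries were most like each ligand were taken from 12162 genes with a mean of at least 1 CPM, as a description with no test. *Ccl12* went most closely with *Ifi206* (r = 0.95, rho = 0.99) and *Impdh1* (r = 0.93, rho = 0.92), and *Cxcl10* with *Cxcl11*, another CXCR3 ligand (r = 0.95, rho = 0.72), and with *Ifi207* (r = 0.94, rho = 0.93). *Trim16* was the closest gene for both *Ccl3* (r = 0.94) and *Ccl4* (r = 0.95), but without the 2 libraries farthest from the ligand's median these were 0.51 and 0.62. The next closest were *Plaur* for *Ccl3* (r = 0.91, and 0.65 without the 2 libraries) and *Tmem156* for *Ccl4* (r = 0.90, and 0.46 without them). *Cxcl16* went with *Cst7*, a cystatin of activated microglia (r = 0.95, rho = 0.85), and *Axl*, a receptor tyrosine kinase (r = 0.92, rho = 0.83). *Ccl2* went with *Adap1* (r = 0.94) and *Bcl3*, a regulator of NF-kappaB (r = 0.93), and *Ccl7* with *Dctn3* (r = 0.95) and *Ndufb2* (r = 0.90). *Ccl6* went with *Elovl1* and *Gstm5* (r = 0.93 each), *Ccl9* with *Stk11* and *Actb* (r = 0.95 each), and *Ccl5* with *Acot7* and *Mrps7* (r = 0.95 each).

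Receptors of these ligands were present at unequal levels in the same libraries. *Ccr1* stood at 97.6 ± 26.8 and 101 ± 18 CPM and *Ccr2* at 31.3 ± 11.6 and 29.2 ± 1.9 CPM with PBS and GA (SD, n = 5 each). *Cx3cr1*, the fractalkine receptor of microglia, which binds none of the 10 ligands, was the most abundant receptor at 7243 ± 510 and 6903 ± 265 CPM. *Cxcr3* had 1.255 and 1.37 CPM and *Cxcr6* 0.391 and 0.318 CPM on average, with 0 counts of *Cxcr6* in at least 1 GA library, which allows up to 3. Of 23 receptors 14 were tested, and 0 differed between GA and PBS at an adjusted or an unadjusted *P* under 0.05 (edgeR), with a median log2 fold change of -0.05. *Adam10*, the protease that sheds CXCL16, stood at 477 ± 53 and 485 ± 14 CPM, and *Adam17* at 451 ± 32 and 449 ± 18 CPM (SD, n = 5 each).

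Of 27 other chemokine ligands, 7 had 0 counts in every library and 12 were tested, with 7 estimates higher and 5 lower with GA and 0 past an adjusted *P* of 0.05 (edgeR). *Cxcl13*, a B cell attractant, ranged from 49.9 to 346 CPM with PBS and from 26.0 to 376 CPM with GA, and *Cxcl14* averaged 29.4 and 32.3 CPM. *Ccl25*, a thymic and gut chemokine, alone of the 12 had an unadjusted *P* under 0.05, against 5.75% of all genes tested. It stood at 10.4 ± 1.7 CPM with PBS and 13.2 ± 2.0 CPM with GA (log2 fold change 0.35, SE 0.14, adjusted *P* = 0.854, edgeR quasi-likelihood test). Of the 18 NF-kappaB and inflammatory genes, *Nfkb1* alone had an unadjusted *P* under 0.05, against 5.75% of all genes tested. *Nfkb1* encodes a subunit of NF-kappaB and ranged from 166 to 184 CPM with PBS and from 157 to 159 CPM with GA. Its groups did not overlap, as was so for 0.891% of all genes tested (log2 fold change -0.16, SE 0.05, adjusted *P* = 0.847, edgeR quasi-likelihood test). The most abundant of that list, *Cd83* and *Icam1*, had 394 ± 80 and 268 ± 30 CPM with PBS and 420 ± 57 and 273 ± 23 CPM with GA (SD, n = 5 each). Of the 22 immediate early genes 21 were tested, and *Klf2* alone had an unadjusted *P* under 0.05, against 5.75% of all genes tested. It stood at 9.13 ± 4.27 CPM with PBS and 6.07 ± 0.64 CPM with GA (log2 fold change -0.59, adjusted *P* = 0.854, edgeR quasi-likelihood test). The fold change of *Klf2* was -0.26 without 388_4, its highest library, and -0.23 with the title number as a block. The most abundant were *Jun*, at 231 ± 49 and 257 ± 149 CPM, and *Btg2*, at 244 ± 15 and 257 ± 7 CPM (SD, n = 5 each).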

How the data were processed

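The authors deposited raw counts of reads per gene as whole numbers without normalization, for 10 libraries made with SMARTer Ultra Low Input and NexteraXT kits. The submitters' processing notes name bcl2fastq 2.19.0, fastp 0.20.0, STAR 2.7.0f, Subread 1.6.4 with featureCounts, DESeq2 and GRCm38.p6, and the gene annotation is not given in the sources used here. Groups came from the treatment label. Genes were filtered with filterByExpr (minimum count 10), scaled by TMM and tested with edgeR 4.0.16 (glmQLFit, glmQLFTest) in R 4.3.3 without a covariate, and *P*-values were Benjamini-Hochberg adjusted over 14481 genes. limma 3.58.1 and DESeq2 1.42.0 were alternatives. Exact permutation tests and correlations used log2(CPM + 0.1) in Python 3.11.15 with scipy 1.17.1. For exon lengths, 98.3% of the symbols were found in GENCODE M21 (GRCm38). The code was tested on simulated data. The floor of 3 counts covers counting error only, the 95% intervals come from the edgeR fit and include the spread between libraries, and the labels do not say which mouse each library came from, so *P*-values measure the spread between libraries. No pair of libraries was a copy (chi-square per degree of freedom 13.0 or more over 45 pairs). The ligands and gene lists were chosen with earlier results of these data known. Named beside the ligands are list genes at an unadjusted *P* under 0.05, the 2 most abundant of each pathway list, some of their receptors, and the 2 genes most like each ligand. A receptor, an allele and a coding sequence are not reported here.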

Additional observations from a re-analysis of the deposited data

Results flagged for a closer look

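Within PBS, library 388_1 stood apart for a pair of ligands among the 20 combinations of ligand and group examined, each of 5 libraries, where chance marks about 1 in 20. For *Ccl3* the gap between 388_1 and the next lowest library took 0.766 of the range of the group on the log2 scale, and for *Cxcl16* it took 0.791. Without 388_1 the difference in mean log2 CPM between GA and PBS was 0.18 for *Ccl3* (two-sided exact permutation test, *P* = 0.175) and 0.08 for *Cxcl16* (*P* = 0.492, exact test).

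For 4 ligands, both GA libraries of prefix 394 lay on one side of the PBS mean of log2 CPM and all 3 of prefix 400 on the other, as was so for 7.12% of all genes tested in either direction and for 3.54% with prefix 400 above. The difference between the means of prefix 400 and prefix 394 was 0.835 for *Ccl2*, 1.01 for *Ccl12*, 1.54 for *Cxcl10* and 0.344 for *Cxcl16*, and for all 4 the libraries of prefix 400 were the higher. In the edgeR quasi-likelihood fit the adjusted *P* of this difference was 0.939 for *Ccl2*, 0.495 for *Ccl12*, 0.685 for *Cxcl10* and 0.730 for *Cxcl16*.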

How the results depend on the processing

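The count of ligands past an adjusted *P* of 0.05 between GA and PBS was 0 in all 22 alternatives, and that of ligands without overlap was 0 in all 13. Over all genes, the count was 2 with DESeq2 defaults, 3 without its independent filtering and Cook cutoff, and 0 to 1 without 1 library (1 without 394_1). With the title number as a replicate block 0 genes were called, and *Ccl6* (0.0105) and *Ccl9* (0.0553) turned positive. Libraries with the same title number did not deviate together (r from -0.12 to 0.05), so the numbers were not taken as pairs. With GA prefix 394 alone, the log2 fold change turned to -0.18 for *Ccl2*, -0.62 for *Ccl5*, -0.89 for *Ccl7*, -0.25 for *Ccl12*, -0.86 for *Cxcl10* and -0.0462 for *Cxcl16*. Without both 388_4 and 388_5, chosen after seeing the data, *Ccl6* (fold change 0.0057, mean difference 0.0034) and *Ccl9* (0.0676 and 0.064) turned positive, and 4 ligand pairs and 1 ligand and list pair were correlated. Without 1 library, fold changes ran from -0.24 to 0.65 for *Ccl7*, -0.148 to 0.0145 for *Ccl9* and -0.0705 to 0.65 for *Cxcl10*, and differences in mean log2 CPM from -0.26 to 0.62 for *Ccl7*, -0.13 to 0.0136 for *Ccl9*, -0.0449 to 0.55 for *Cxcl10* and -0.0307 to 0.65 for *Ccl5*. Between the prefixes, DESeq2 called 64 genes, limma-voom 2 and fits without 1 library 0 to 4, and the estimates without 1 library ran from -0.23 to 0.0096 for *Ccl3*, -0.11 to 0.13 for *Ccl4* and -0.11 to 0.20 for *Ccl6*. Limma-voom there, and the omissions there and for the order per length, were chosen after seeing the data. The 3 correlated pairs became 1 on deviations from the group means and 2 to 4 without 1 library. The single ligand and list pair became 3 with log2 of the summed CPM and 0 to 4 without 1 library. The 6 steps of the order were 5 with the longest transcript and 5 to 6 without 1 library. The causes were not tested. Counts of 9 to 240 per library limit *Ccl2*, *Ccl5* and *Ccl7*.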
